A study of Mus musculus with 8 samples.

Results

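Collagens and extracellular matrix glycoproteins form the scaffold that muscle cells secrete and sit on. The set described here holds 49 genes out of the 53647 gene identifiers counted per library. They were picked by symbol: 19 collagen chain genes, laminins, nidogens and the perlecan gene Hspg2, glycoproteins, proteoglycans, the matrix protein gene Mgp, and the platelet-derived growth factor receptor genes Pdgfra and Pdgfrb, which serve as markers of fibroblasts. Each of the 49 symbols matched 1 Ensembl identifier. RNA came from mouse primary myotubes of wild-type genotype, the fused fibres that form in culture from myoblasts, here isolated from the limbs of 2 to 3 day old pups and differentiated in medium with 5% horse serum. One of the cytokines interleukin 6 (IL6), oncostatin M (OSM) and leukaemia inhibitory factor (LIF) was added at 250 ng/ml for 48 h, and control myotubes carry the label Control, with no vehicle named. All cultures were harvested 72 h after differentiation began, and each of the 4 groups has 2 libraries. Nothing in the labels ties a replicate to its own animal or dish, so p-values measure the spread between these libraries, which may be technical.

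Fibrillar collagens (types I, III, V and XI) assemble into the rope-like fibrils of connective tissue. The basement membrane is a sheet that wraps each muscle fibre and is built from a collagen IV network and a laminin network, joined by nidogen and perlecan. In muscle much of the fibrillar matrix is made by fibroblasts, while myogenic cells in culture also make collagen IV, laminin and fibronectin. Matricellular proteins such as osteopontin (Spp1), tenascin C (Tnc) and periostin (Postn) are secreted into the matrix but act on cells more than they bear load. OSM, LIF and IL6 share the receptor subunit Il6st and signal largely through STAT3, and OSM is known to alter matrix turnover in connective tissue cells.

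Each library held between 29482077 and 30025471 counts in genes. The 49 genes took 1.78% and 1.81% of the counts in control, 1.67% and 1.75% with IL6, 1.84% and 1.84% with LIF, and 2.17% and 2.20% with OSM. Levels below are CPM, the reads of a gene per 1e6 reads of its library after scaling by the trimmed mean of M values. Most of the higher total with OSM was the osteopontin gene Spp1. Without it the other 48 genes summed to 16473 and 16454 CPM in control and 16848 and 17122 CPM with OSM, while all 49 summed to 18041 and 18062 CPM in control and 21870 and 21924 CPM with OSM. Changes are on the log2 scale, each with its standard error (SE), from edgeR fitted to all 8 libraries. Calls needed an adjusted p below 0.05. Of the 49 genes, 46 had enough counts to be tested. The other 3 were the elastin gene Eln, with 2 counts in 1 control library and 0 in the other 7 libraries, the lumican gene Lum, with 0 in all libraries, and the nidogen gene Nid1, with 2 to 8 counts. An observed 0 still allows 3 counts in a library, a limit that covers counting error only.

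The label was checked against defining markers. Myotube markers were abundant and all 13 were detected. Their summed level was 28109 to 29328 CPM in control, 24760 to 27095 with IL6, 24978 to 26567 with LIF and 24672 to 24961 with OSM. Of the 10 fibroblast markers, 5 stayed under 1 CPM in every library, among them Thy1 with 0 to 1 counts, Dpt with 0 to 3, Clec3b with 0 to 2 and Tcf21 with 0. The summed fibroblast marker level was 375.7 to 434.4 CPM in control, 399.9 to 423.4 with IL6, 477.1 to 482.9 with LIF and 540.3 to 546.1 with OSM. Most of it came from Gsn, at 281.3 CPM in control. Endothelial markers summed to 1.28 to 2.28 CPM over the 8 libraries, leukocyte markers to 2.57 to 5.37 CPM and Schwann cell markers to 1.72 to 2.96 CPM. Tendon markers summed to 28.0 to 34.4 CPM and markers of smooth muscle cells and pericytes to 107.1 to 128.7 CPM. In bulk RNA, fewer cells of a type and less RNA per cell cannot be told apart. The level in IL6 replicate 1 was below that in IL6 replicate 2 for 38 of the 46 tested members. The matching share of all tested genes was not computed. IL6 replicate 1 was the lowest library of all 8 for 15 of the 46 members. Over all tested genes it was the lowest library for 14.9%.

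Per length of exon, the most abundant members in control were Spp1 (963.9 CPM per kb), Sparc (391.96), Fn1 (335.6), Bgn (156.2), Col3a1 (145.99) and Hspg2 (101.3). Spp1 encodes osteopontin, Sparc a collagen-binding matricellular protein, Fn1 fibronectin, Bgn the small proteoglycan biglycan and Hspg2 the basement membrane proteoglycan perlecan. With OSM, Spp1, Sparc and Fn1 kept the first places in this order, and Col3a1 came next. Collagen I was lopsided. Col1a1 was at 308.9 and 169.4 CPM in control, while Col1a2, whose product joins the Col1a1 chain in ordinary collagen I, was at 0.583 and 0.604 CPM. Col1a2 had 16 to 31 counts over the 8 libraries. Per length the Col1a1 to Col1a2 ratio in control was 767 ± 334 (SD, n = 2) with the union of exons as length and 365 ± 159 with the longest coding transcript.

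**Figure D1:**
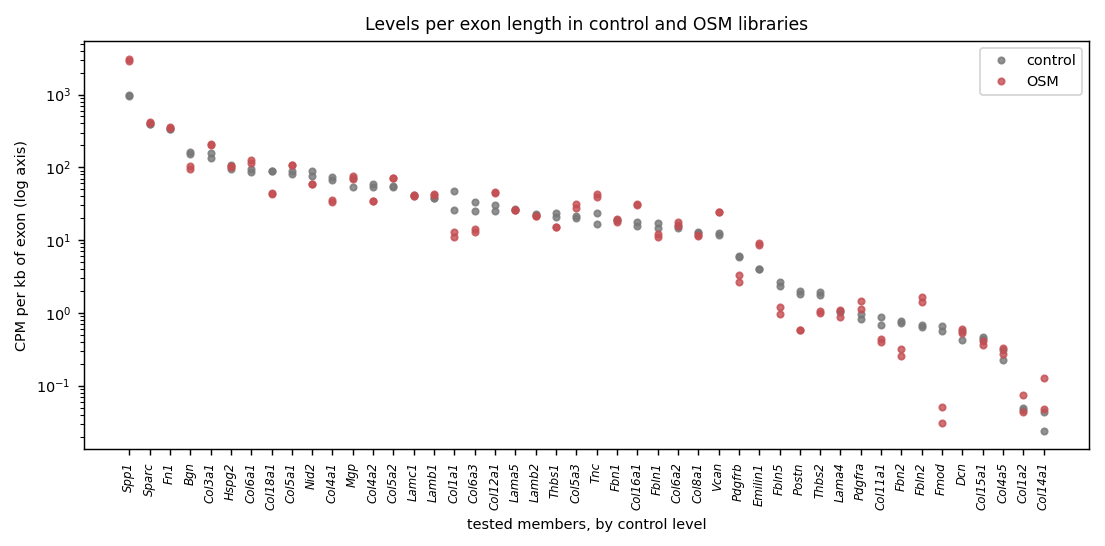
Levels of the 46 tested members in the 2 control and 2 OSM libraries, as CPM per kb of exon on a log axis, ordered by control level. Each point is a library. Spp1 stands first in both groups, and Col1a2 and Col14a1 lie at the low end.

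OSM changed a large share of the set, in both directions. Of 46 tested members 28 were called, 13 higher and 15 lower, that is 60.9%, while 21.4% of all 15603 tested genes were called in this comparison, 10.8% higher and 10.6% lower. The median log2 change was 0.004 over the members and −0.003 over all tested genes. At least 2-fold changes made up 12 of the 28 calls, and 22.9% of the OSM calls over all genes. The largest called rises were in Spp1, Fbln2, Emilin1, Tnc and Vcan, and the largest falls in Fmod, Postn, Fbn2, Fbln5 and Col6a3. The 28 calls became 23 to 29 when any library was left out.

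**Figure D2:**
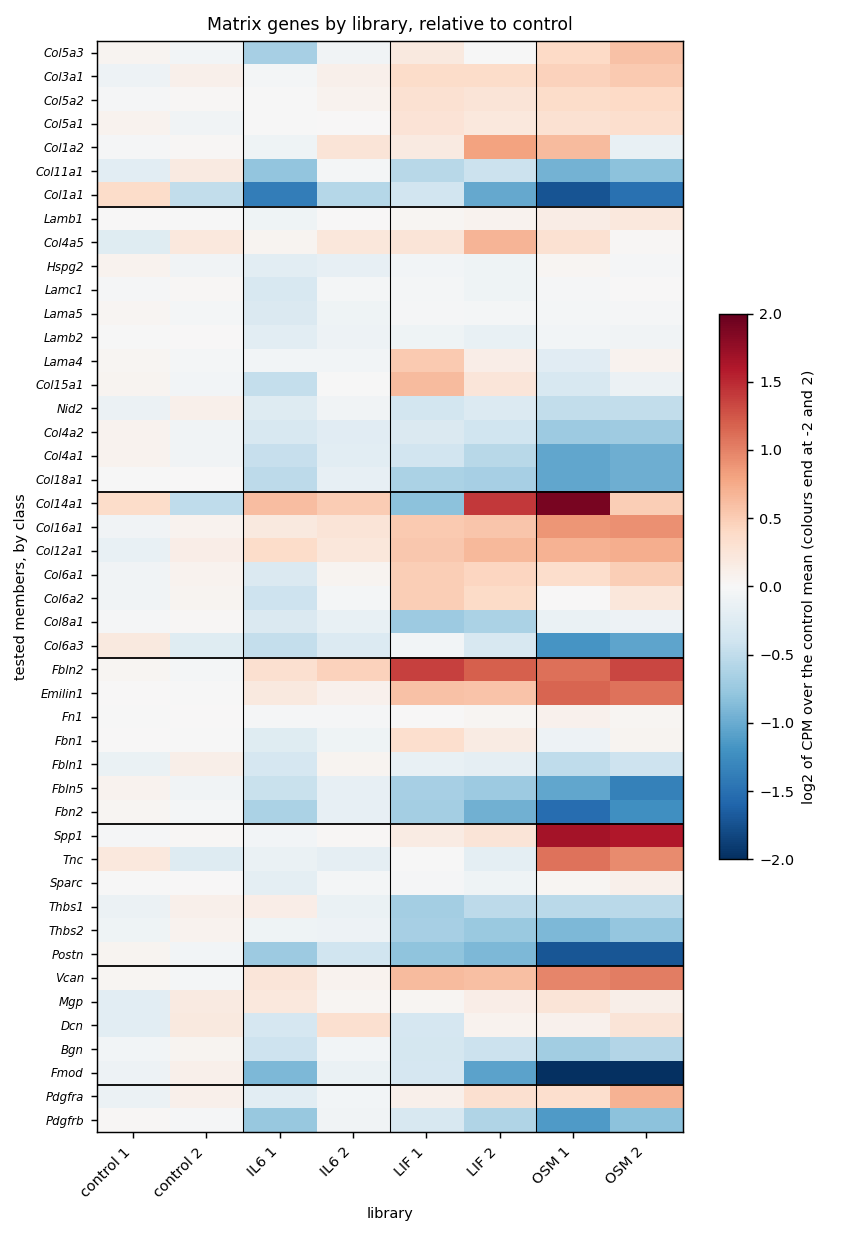
Level of each tested member in each library, as log2 of CPM over the control mean, with classes divided by black lines in the order fibrillar collagens, basement membrane, other collagens, fibronectin and elastic fibre proteins, matricellular proteins, proteoglycans with Mgp, and receptors. Colours end at −2 and 2. The OSM columns hold the deepest red and blue, and each class has members of both signs with OSM.

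Among the 7 fibrillar collagen genes, OSM raised 3 and lowered 1, against 10.8% raised and 10.6% lowered among all tested genes. Col3a1 (ENSMUSG00000026043), the chain of collagen III, stood at 1332 and 1534 CPM in control, 1401 and 1530 with IL6, 1851 and 1851 with LIF, and 1972 and 2064 with OSM. Both LIF and both OSM libraries lay above both controls, and the IL6 libraries lay among the controls. Its log2 change was 0.49 with OSM (SE 0.075, adjusted p 0.000373) and 0.37 with LIF (SE 0.075, adjusted p 0.00849). The LIF call was lost without control replicate 1 (adjusted p 0.0545), LIF replicate 1 (0.0841) or LIF replicate 2 (0.098). Col5a1 and Col5a2 encode collagen V, which is laid down inside collagen I and III fibrils and limits their width. Col5a1 rose by 0.33 with OSM (SE 0.064, adjusted p 0.0027) and 0.25 with LIF (adjusted p 0.0318). Col5a2, the genomic neighbour of Col3a1, rose by 0.38 with OSM (SE 0.058, adjusted p 0.000375) and 0.28 with LIF (adjusted p 0.0089). Col5a3 lay higher in both OSM libraries than in control, by 0.49 (SE 0.17), and did not pass (adjusted p 0.0687).

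Col1a1 (ENSMUSG00000001506) went the other way, with wide spread between replicates. Its levels were 308.9 and 169.4 CPM in control, 92.2 and 160.8 with IL6, 183.4 and 117.8 with LIF, and 72.1 and 84.7 with OSM. Both OSM libraries were lower than each of the other 6. The log2 change of −1.61 with OSM had an SE of 0.47 and a 95% interval of −2.86 to −0.36, and it did not pass (adjusted p 0.0858). The DESeq2 Wald test called it (adjusted p 0.00559). Col11a1, a minor fibrillar chain that is also found in cartilage, had 150 to 335 counts and fell with OSM by 0.88 on the log2 scale (SE 0.22, adjusted p 0.0152). For Col1a2, at 0.924 and 0.537 CPM with OSM, the interval of the change was −0.57 to 1.16. A fall or a rise within these limits was not excluded.

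In the basement membrane class OSM lowered 4 of 12 tested genes and raised 1, against 10.6% lowered and 10.8% raised among all tested genes. The 4 that fell were the collagen IV genes Col4a1 and Col4a2, Col18a1, whose collagen XVIII carries the endostatin domain, and the nidogen gene Nid2. Col4a1 (ENSMUSG00000031502) stood at 542.8 and 496.4 CPM in control, 378.0 and 448.3 with IL6, 397.8 and 354.5 with LIF, and 252.0 and 265.2 with OSM. Every cytokine library lay below both controls, and the OSM pair was lowest. Col4a1 fell by 1.01 on the log2 scale with OSM (SE 0.086, adjusted p 2.93e-06), to 1 part in 2.01 of its control level, and by 0.47 with LIF (SE 0.085, adjusted p 0.00511). Col4a2 (ENSMUSG00000031503) stood at 388.9 and 352.2 CPM in control, 296.0 and 316.7 with IL6, 304.0 and 281.0 with LIF, and 224.6 and 225.3 with OSM. It fell by 0.72 with OSM (SE 0.068, adjusted p 5.06e-06) and by 0.34 with LIF (SE 0.067, adjusted p 0.00723). Without LIF replicate 2 neither LIF call held (adjusted p 0.106 for Col4a1 and 0.156 for Col4a2).

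Col4a1 and Col4a2 lie head to head and are read from opposite strands of 1 shared stretch of DNA. Their promoter windows, each 250 bases before to 50 after the start site, are shown because the pair fell together. The sequences are from RefSeq on the GRCm38.p6 build, where the Col4a1 window is chr8:11312777-11313076 on the minus strand and the Col4a2 window chr8:11312555-11312854 on the plus strand. Capitals mark the 78 bases that both windows hold, written 5′ to 3′ on the strand of each gene, so that the capital run of one is the reverse complement of the other.
Col4a1: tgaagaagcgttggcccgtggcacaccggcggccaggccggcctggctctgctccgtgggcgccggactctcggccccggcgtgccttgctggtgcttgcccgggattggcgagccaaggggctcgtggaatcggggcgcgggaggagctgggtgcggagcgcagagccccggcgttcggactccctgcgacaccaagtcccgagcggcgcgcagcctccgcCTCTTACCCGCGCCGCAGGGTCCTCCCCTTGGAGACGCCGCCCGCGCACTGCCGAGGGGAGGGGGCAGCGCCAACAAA
Col4a2: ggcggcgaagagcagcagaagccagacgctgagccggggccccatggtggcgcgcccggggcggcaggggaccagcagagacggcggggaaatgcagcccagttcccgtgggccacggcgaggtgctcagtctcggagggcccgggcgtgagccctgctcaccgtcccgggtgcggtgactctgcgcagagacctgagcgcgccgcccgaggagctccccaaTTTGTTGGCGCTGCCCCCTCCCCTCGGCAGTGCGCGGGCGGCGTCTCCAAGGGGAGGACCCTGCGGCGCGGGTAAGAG
The start sites lie 21 bases apart in this annotation. The per-length ratio of Col4a1 to Col4a2 was 1.24 and 1.25 in control, 1.13 and 1.26 with IL6, 1.16 and 1.119 with LIF, and 0.995 and 1.04 with OSM. The OSM libraries had the lowest ratios of the 8, and Col4a1 is the chain that enters the common collagen IV molecule in excess. The ratio is given as a description, with no test.

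Col18a1 (ENSMUSG00000001435) was at 618.3 and 620.0 CPM in control, 428.7 and 552.9 with IL6, 400.6 and 390.8 with LIF, and 299.9 and 315.4 with OSM. It fell by 1.01 with OSM (SE 0.095, adjusted p 1.03e-05) and by 0.65 with LIF (SE 0.094, adjusted p 0.0015). Nid2, a linker of laminin and collagen IV, fell by 0.49 with OSM (SE 0.080, adjusted p 0.000672) and 0.32 with LIF (adjusted p 0.0275). Its partner Nid1 had at most 8 counts in any library. The laminin and perlecan genes did not follow Col4a1 and Col4a2. Lamc1, the γ1 chain found in most laminins, was at 332.1 and 340.2 CPM in control, 270.6 and 327.3 with IL6, 325.5 and 318.0 with LIF, and 331.1 and 339.2 with OSM. The control and OSM libraries of Lamc1 overlapped, and its 95% interval with OSM ran from −0.17 to 0.16. Hspg2 had an interval of −0.13 to 0.16, Lama5 of −0.18 to 0.12 and Lamb2 of −0.19 to 0.067, so each of these excludes a fall as large as that of Nid2. Lamb1 rose by 0.18 with OSM (SE 0.058, adjusted p 0.0429). Lama4, Col15a1 and Col4a5 were low, at 12.8 and 12.3, 2.95 and 2.75, and 1.51 and 2.05 CPM in control, and none was called with OSM or LIF.

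Fibrillar and basement membrane classes were then set side by side. The median log2 change over the 7 fibrillar genes was 0.33 for OSM, 0.25 for LIF and −0.004 for IL6. Over the 12 tested basement membrane genes it was −0.070, −0.064 and −0.18 in the same order. The differences of the medians were 0.40, 0.31 and 0.17. In single libraries, as the median deviation from each gene's mean, the fibrillar minus basement membrane difference was −0.15 and −0.17 in control, −0.13 and −0.11 with IL6, 0.11 and 0.096 with LIF, and 0.31 and 0.26 with OSM. The groups did not overlap on this measure, and the pooled SD between replicates was 0.021. The class medians hide unlike members: Col1a1 and Col11a1 had negative values with OSM, and in the basement membrane class the falls were in Col4a1, Col4a2, Col18a1 and Nid2 but in no tested laminin gene. As members are not replicates and were chosen with earlier results known, no test was made on the classes.

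The make-up of collagen chain RNA is given next, as a description with no test. Collagen IV took 17.4% and 16.1% of the CPM per kb summed over the 19 collagen chains in control, 14.95% and 14.8% with IL6, 12.2% and 11.6% with LIF, and 8.97% and 8.74% with OSM. Fibrillar chains took 46.2% and 45.6% in control, 48.5% and 47.2% with IL6, 50.4% and 50.3% with LIF, and 54.9% and 54.5% with OSM. The order of the 4 groups was the reverse for these shares, with no overlap between groups. Within the fibrillar share, Col3a1 made up 17.9% and 20.98% of collagen chain RNA in control and 26.5% and 26.3% with OSM, while Col1a1 stood at 6.22% and 3.47% in control and 1.45% and 1.62% with OSM. The summed collagen level itself was 757.0 and 744.9 CPM per kb in control and 758.8 and 798.8 with OSM, so both OSM libraries lay above both controls, and the nearest of them by little.

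**Figure D3:**
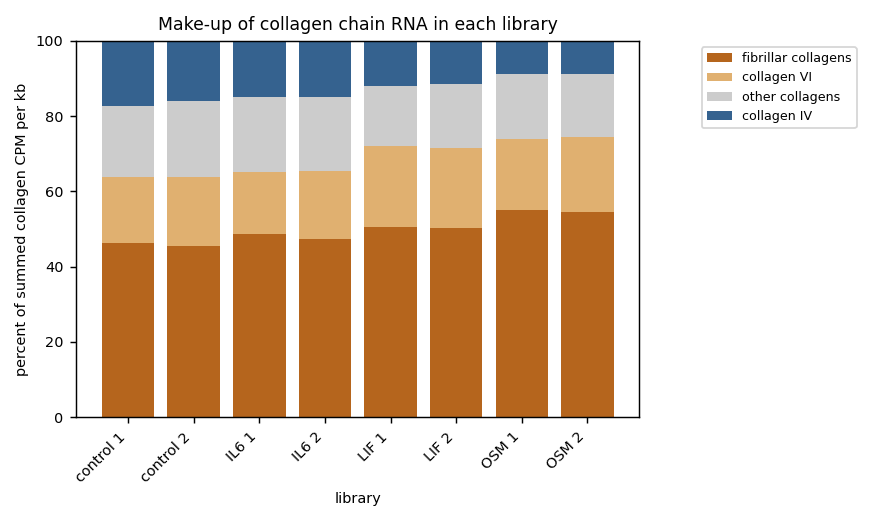
Share of 4 collagen groups in the CPM per kb summed over the 19 collagen chain genes, with 1 bar per library. The collagen IV share, on top, is 17.4% and 16.1% in control and 8.97% and 8.74% with OSM, and the fibrillar share at the bottom is highest with OSM.

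The other collagens moved both ways, and of 7 OSM raised 3 and lowered 1 (10.8% and 10.6% of all tested genes). Col12a1 and Col16a1 encode fibril-associated collagens that coat or link fibrils. Col16a1 (ENSMUSG00000040690) was at 106.4 and 118.1 CPM in control, 128.8 and 133.7 with IL6, 162.0 and 165.7 with LIF, and 207.8 and 212.4 with OSM. It rose by 0.90 with OSM (SE 0.064, adjusted p 3.54e-07) and 0.55 with LIF (SE 0.064, adjusted p 0.000215), and the 4 groups did not overlap. Col12a1 stood at 382.5 and 466.6 CPM in control, 548.3 and 498.6 with IL6, 615.1 and 665.4 with LIF, and 685.4 and 700.9 with OSM. It rose by 0.71 with OSM (SE 0.087, adjusted p 7.54e-05) and 0.59 with LIF (SE 0.087, adjusted p 0.00131). Col14a1, with 4 to 26 counts, was not called.

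Collagen VI, which forms beaded filaments next to the basement membrane, had chains that moved apart. Col6a3 (ENSMUSG00000048126) was at 405.0 and 299.0 CPM in control, 254.0 and 290.5 with IL6, 337.4 and 281.7 with LIF, and 155.3 and 169.0 with OSM. The OSM libraries lay well under all others, and the log2 change was −1.118 (SE 0.15, adjusted p 0.000725). For Col6a1 the rise was 0.43 with OSM (SE 0.10, adjusted p 0.0111) and 0.46 with LIF (SE 0.10, adjusted p 0.0165). Its neighbour on the chromosome, Col6a2, rose with LIF (0.44, SE 0.11, adjusted p 0.0407) and was not called with OSM (0.12, adjusted p 0.495). The per-length ratio of Col6a3 to Col6a1 was 0.397 and 0.264 in control, 0.287 and 0.259 with IL6, 0.222 and 0.194 with LIF, and 0.113 and 0.111 with OSM. Col8a1, a short-chain collagen, was at 97.7 and 100.03 CPM in control, 81.2 and 89.5 with IL6, 59.8 and 63.95 with LIF, and 90.3 and 91.9 with OSM. It fell with LIF by 0.68 (SE 0.067, adjusted p 5.84e-05) and was not called with OSM (−0.12, adjusted p 0.246). The LIF libraries of Col8a1 were the lowest of the 8.

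Among fibronectin and the elastic fibre proteins, OSM raised 2 of 7 tested genes and lowered 3 (10.8% and 10.6% of all tested genes). Fn1 (ENSMUSG00000026193) was at 3899 and 3944 CPM in control, 3839 and 3843 with IL6, 3929 and 4030 with LIF, and 4151 and 4051 with OSM. Its change with OSM was 0.064 (SE 0.060, adjusted p 0.500), with a 95% interval of −0.065 to 0.19. Emilin1 (ENSMUSG00000029163), a glycoprotein at the edge of elastic fibres, stood at 19.9 and 19.7 CPM in control, 22.8 and 20.9 with IL6, 29.7 and 29.3 with LIF, and 44.6 and 42.05 with OSM. It rose by 1.13 with OSM (SE 0.079, adjusted p 3.54e-07) and 0.57 with LIF (SE 0.081, adjusted p 0.000869). The 4 groups of Emilin1 did not overlap.

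Fibulins bind elastic fibres and basement membranes, and the 3 measured did not move alike. Fbln2 (ENSMUSG00000064080) rose from 4.32 and 4.13 CPM in control to 10.9 and 9.71 with LIF and 9.10 and 10.7 with OSM, and was at 5.29 and 5.83 with IL6. Its log2 change was 1.23 with OSM (SE 0.14, adjusted p 3.49e-05) and 1.28 with LIF (SE 0.14, adjusted p 0.000134), the largest LIF rise in the set. Fbln5 fell from 18.1 and 16.4 CPM to 8.42 and 6.78 with OSM, a log2 fall of 1.18 (SE 0.13, adjusted p 2.82e-05). It fell to 10.9 and 10.5 with LIF, by 0.69 (SE 0.13, adjusted p 0.00511, and 0.0799 without LIF replicate 2). It was at 12.6 and 15.3 CPM with IL6. For Fbln1 the fall with OSM was 0.46 (SE 0.12, adjusted p 0.017). The fibrillins are the beads of microfibrils. Fbn2 fell from 10.2 and 9.60 CPM to 3.42 and 4.23 with OSM, a log2 fall of 1.37 (SE 0.18, adjusted p 0.000108). It fell to 6.19 and 5.06 with LIF, by 0.81 (SE 0.17, adjusted p 0.0104, and 0.166 without LIF replicate 2), and stood at 6.38 and 8.80 with IL6. Fbn1 was at 231.1 and 229.5 CPM in control and 215.7 and 238.9 with OSM, which overlap. On GENCODE M21, 20.1% of its exon bases overlap a gene on the opposite strand, Gm9913, and the strand setting of the counting is not given in the sources used here.

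Matricellular genes held the largest rise and the second largest fall. Spp1 (ENSMUSG00000029304), a secreted ligand of integrins and CD44 that regenerating muscle makes, was at 1568 and 1609 CPM in control, 1525 and 1608 with IL6, 1788 and 1909 with LIF, and 5022 and 4802 with OSM. The OSM libraries stood far above the other 6. Spp1 rose 3.09-fold, a log2 change of 1.63 (SE 0.066, adjusted p 5e-09), while LIF gave 0.22 (SE 0.065, adjusted p 0.0575). The LIF change passed with DESeq2 (adjusted p 0.0139), without the low-count filter (adjusted p 0.0159) and with the replicate number as a block (adjusted p 0.0416). On M21, 18.8% of Spp1 exon bases overlap the gene model Gm42793 on the same strand. The gene Tnc (ENSMUSG00000028364), which encodes tenascin C, a protein of injured and developing connective tissue, was at 180.6 and 130.7 CPM in control, 142.3 and 137.1 with IL6, 155.1 and 136.1 with LIF, and 331.6 and 301.2 with OSM. Its rise with OSM was 1.02 (SE 0.13, adjusted p 0.000486), and the LIF libraries lay among the controls (−0.096, adjusted p 0.764).

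Promoter windows of these OSM-raised genes are shown next. Capitals mark the letters TATAAA, near the upstream end of each window and away from the start site. Windows were chosen for printing because they hold these letters, so their presence here is no result. The collagen IV windows lack them, and no contrast between raised and lowered genes was tested. The windows are RefSeq GRCm38.p6 sequences at chr5:104434861-104435160 on the plus strand for Spp1 and chr4:64046887-64047186 on the minus strand for Tnc, 5′ to 3′. RefSeq gives each of these genes 2 windows, of which 1 is printed. The other Spp1 window, chr5:104435942-104436241, holds no TATAAA, and the other Tnc window, chr4:64046966-64047265, which overlaps the printed one, holds it.
Spp1: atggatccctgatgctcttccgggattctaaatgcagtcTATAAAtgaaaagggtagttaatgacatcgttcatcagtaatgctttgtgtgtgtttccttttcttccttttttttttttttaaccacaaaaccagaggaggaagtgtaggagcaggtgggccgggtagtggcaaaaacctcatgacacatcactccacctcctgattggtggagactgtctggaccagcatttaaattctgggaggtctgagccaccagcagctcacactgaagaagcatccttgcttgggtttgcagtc
Tnc: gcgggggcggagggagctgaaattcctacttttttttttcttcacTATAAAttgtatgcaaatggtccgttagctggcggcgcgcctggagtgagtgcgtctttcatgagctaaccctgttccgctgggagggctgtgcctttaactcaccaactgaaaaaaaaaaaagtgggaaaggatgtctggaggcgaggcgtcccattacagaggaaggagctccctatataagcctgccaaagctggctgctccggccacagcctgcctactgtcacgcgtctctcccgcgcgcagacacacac
RefSeq windows matched 34 of the 49 members. On either strand TATAAA occurred in at least 1 window of 5 of them (14.7%; Col3a1, Postn, Tnc, Thbs2 and Spp1) and of 15.7% of all genes with a window. The letters TTCNNNGAA, the core of sites that STAT factors can bind, occurred in 1 of the 34 (2.94%; Lamb2) and in 9.55% of all genes. GGGCGG, the core of a GC box, occurred in 22 of the 34 (64.7%) and in 38.2% of all genes, the Col4a1 and Col4a2 windows included. The longer form TTCCNGGAA, which is also counted as TTCNNNGAA, occurred in 0 of the 34 and in 1.35% of all genes. A match in letters describes the window only.

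Postn (ENSMUSG00000027750), which encodes periostin, a partner of collagen and fibronectin, was at 17.3 and 16.0 CPM in control, 10.1 and 12.7 with IL6, 9.55 and 8.94 with LIF, and 5.06 and 5.07 with OSM. All cytokine libraries lay below both controls. Postn fell by 1.71 with OSM (SE 0.13, adjusted p 9.29e-07) and by 0.85 with LIF (SE 0.12, adjusted p 0.00117). The thrombospondin genes Thbs1 and Thbs2, whose products bind matrix and can activate latent transforming growth factor beta (Thbs1), fell with both cytokines. Thbs2 was at 12.1 and 13.6 CPM in control, 12.2 and 12.0 with IL6, 8.11 and 7.67 with LIF, and 6.91 and 7.48 with OSM, a fall of 0.84 with OSM (SE 0.12, adjusted p 0.000182) and 0.70 with LIF (SE 0.12, adjusted p 0.0024, and 0.0527 without LIF replicate 2). Thbs1 fell by 0.54 with OSM (SE 0.097, adjusted p 0.0019) and 0.60 with LIF (SE 0.097, adjusted p 0.00311). Sparc, at 1474 and 1496 CPM in control and 1531 and 1593 with OSM, was not called (interval −0.071 to 0.22).

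**Figure D4:**
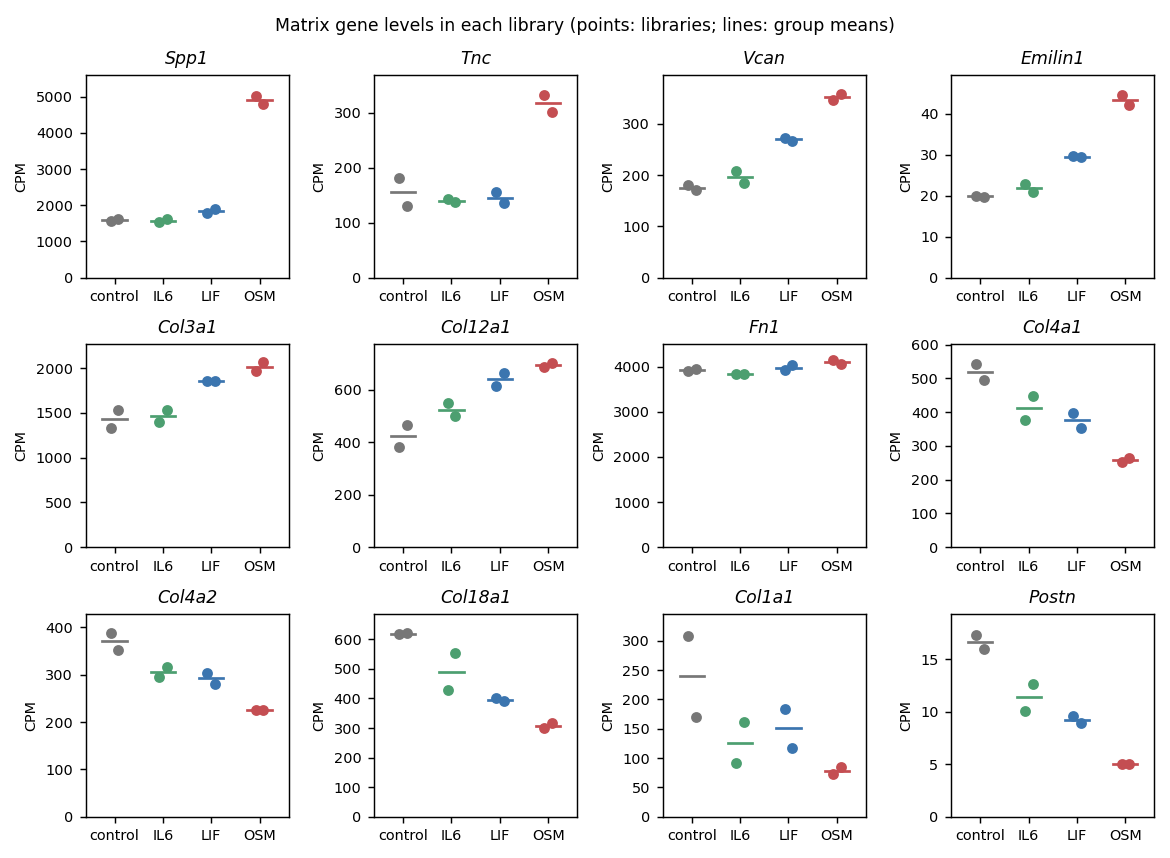
CPM of 12 members in each library, with points for libraries and lines for group means, and each axis starting at 0. Spp1 and Tnc stand highest with OSM, Vcan, Emilin1, Col3a1 and Col12a1 are higher with LIF and OSM, Fn1 is level, and Col4a1, Col4a2, Col18a1 and Postn are lowest with OSM. Col1a1 shows the wide gap between its control libraries.

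Among proteoglycans, Vcan (ENSMUSG00000021614), the large chondroitin sulfate proteoglycan versican, was at 181.1 and 170.2 CPM in control, 208.0 and 183.9 with IL6, 271.8 and 267.0 with LIF, and 346.6 and 357.1 with OSM. The groups did not overlap, and Vcan rose by 1.002 with OSM (SE 0.068, adjusted p 2.61e-07) and 0.62 with LIF (SE 0.068, adjusted p 0.000129). The small leucine-rich proteoglycans bind collagen fibrils. Bgn, the most abundant of them, fell by 0.64 with OSM (SE 0.10, adjusted p 0.000826) and 0.39 with LIF (SE 0.10, adjusted p 0.0362). Fmod, which encodes fibromodulin, had the largest fall of the set but few counts. Its levels were 1.89 and 2.18 CPM in control, 1.09 and 1.85 with IL6, 1.61 and 0.971 with LIF, and 0.103 and 0.168 with OSM, where the OSM values rest on 3 and 5 counts. Over both libraries the 8 counts with OSM against 120 in control were 15.0-fold lower, with an exact counting interval of 7.37 to 35.5, and the fitted change was −3.87 (SE 0.47, adjusted p 5.9e-05). Dcn, the decorin gene that fibroblasts usually express strongly, had 69 to 108 counts per library and was not called, and Mgp, an inhibitor of calcification, was not called either.

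The receptor genes used as fibroblast markers moved apart with OSM. Pdgfra was at 8.24 and 9.60 CPM in control, 7.74 and 8.60 with IL6, 9.55 and 11.2 with LIF, and 11.3 and 14.4 with OSM. It rose by 0.53 (SE 0.14, adjusted p 0.0193), a call lost without control replicate 1 (adjusted p 0.124) or OSM replicate 2 (0.225). Pdgfrb was at 32.8 and 31.8 CPM in control, 19.2 and 30.8 with IL6, 25.9 and 21.2 with LIF, and 14.7 and 18.3 with OSM. It fell by 0.97 (SE 0.21, adjusted p 0.011), a call lost without control replicate 1 (adjusted p 0.0907), control replicate 2 (0.0700) or OSM replicate 1 (0.0711). Of the 10 fibroblast markers, Pdgfra among them, 5 were tested, and with OSM 3 rose and 1 fell: Ly6a, a surface antigen that cytokines can induce, rose by 1.344, Pdpn by 1.16 and Pdgfra as above, while Cd34 fell by 0.76. Of the 6 myoblast markers 4 rose with OSM, and of the 13 myotube markers 3 fell. Among all tested genes 10.8% rose and 10.6% fell with OSM. The summed myoblast marker level was 1910 to 1984 CPM in control, 2544 to 2685 with LIF and 2309 to 2372 with OSM. Most of it came from Des and Itga7, at 1017 and 655 CPM in control and 1251 and 779 with OSM. In the other lists OSM raised Mkx, a tendon marker, by 0.35 and the lysosomal macrophage marker Cd68 by 1.03, and lowered the pericyte marker Rgs5 by 1.92. Each was the only call in its list, and no endothelial or Schwann cell marker was called. The other tested tendon marker, Scx, was at −0.21 with OSM. Of the 5 tested markers of smooth muscle cells and pericytes, 3 had positive changes and 2 negative. Rgs5 had 15 and 31 counts in control and 5 and 7 with OSM. The part of these cell markers in the matrix changes was not tested.

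LIF changed fewer members than OSM. Of 46 tested, 21 were called, 10 higher and 11 lower (45.7%), against 7.66% of all tested genes, 4.2% higher and 3.46% lower. Of these only Fbln2 changed at least 2-fold. Without LIF replicate 2 fewer members were called, and so were fewer of all tested genes. OSM and LIF were compared directly, and 14 members differed, 6 higher and 8 lower with OSM (30.4%, against 8.04% of all tested genes, 4.01% higher and 4.04% lower). With a model of only OSM and LIF libraries the count was 25, while the genes called over all tested genes went from 1255 to 2928. Without LIF replicate 1 fewer members and fewer of all tested genes were called.

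In that direct test OSM stood above LIF for Spp1 by 1.41 (SE 0.066, adjusted p 2.03e-07), Tnc by 1.1195 (SE 0.13, adjusted p 0.000717), Col8a1 by 0.56 (SE 0.067, adjusted p 0.000152), Emilin1 by 0.56 (SE 0.077, adjusted p 0.000479), Vcan by 0.39 (SE 0.067, adjusted p 0.00252) and Col16a1 by 0.36 (SE 0.063, adjusted p 0.00267). The Col16a1 call was lost without LIF replicate 1 (adjusted p 0.0686). OSM stood below LIF for Fmod by −3.21 (SE 0.51, adjusted p 0.00121), Col6a3 by −0.93 (SE 0.15, adjusted p 0.00483), Postn by −0.87 (SE 0.14, adjusted p 0.0014) and Col4a1 by −0.54 (SE 0.086, adjusted p 0.00149). Col4a2, Fbln5, Col18a1 and Fbn1 were also lower with OSM, by −0.38, −0.49, −0.36 and −0.28. The Col4a2 call was lost without LIF replicate 1 (adjusted p 0.0919) or OSM replicate 1 (0.0638), and that of Fbln5 without any 1 of the LIF and OSM libraries. The Col18a1 call had an adjusted p of 0.0339 and missed the threshold when any control, LIF or OSM library was left out. For no fibrillar collagen gene was a difference between OSM and LIF called, and the 95% intervals of that difference were −0.037 to 0.29 for Col3a1, −0.062 to 0.22 for Col5a1 and −0.027 to 0.22 for Col5a2. Set against IL6, OSM differed at 26 members, 14 higher and 12 lower (against 15.5% of all tested genes, 8.02% higher and 7.52% lower), and LIF at 12, 9 higher and 3 lower (against 2.78% of all tested genes, 1.76% higher and 1.02% lower). Without either LIF library the count for LIF against IL6 fell, as did the number of all tested genes called.

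**Figure D5:**
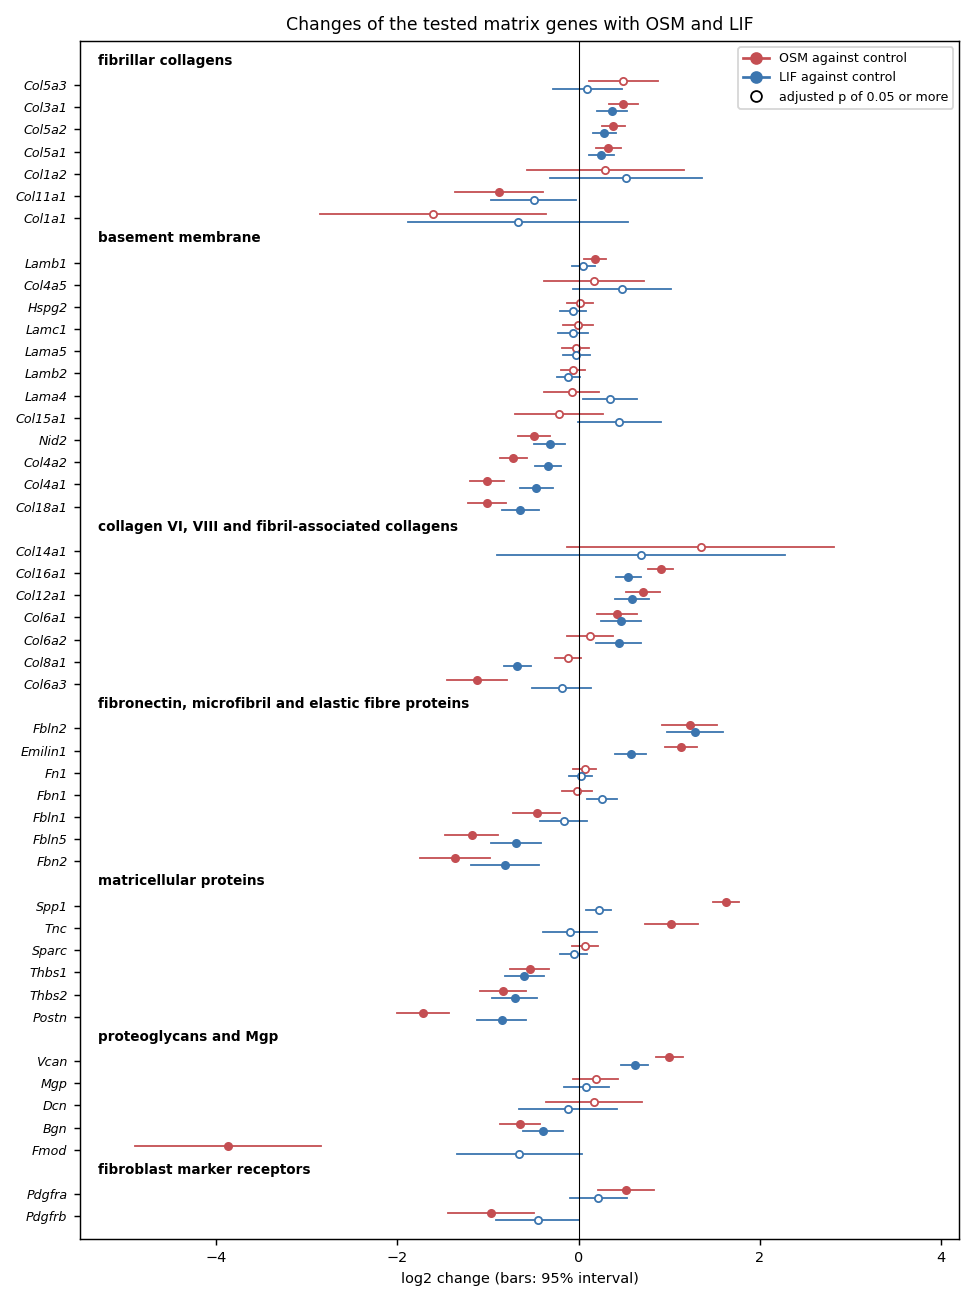
Log2 change of each tested member with OSM (red) and LIF (blue) against control, with 95% intervals, by class. Filled points passed at an adjusted p under 0.05 and open points did not. Col4a1, Col4a2, Col18a1 and Nid2 lie left of 0 and the laminin genes near it, and Fmod, at −3.87 with OSM, lies farthest left.

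With IL6, edgeR called no member (0 of 46, and 0% of all tested genes), and DESeq2 called 0 as well. At an unadjusted p under 0.05 there were 18 members, and 5.1% of all tested genes. The lowest adjusted p was that of Postn, 0.438, with a log2 change of −0.55 (SE 0.12). Levels nevertheless sat mostly on the low side: both IL6 libraries lay below both controls for 21 of 46 members (45.7%), against 14.1% of all tested genes, and above them for 6 (13.0%), against 14%. Taken singly, IL6 replicate 1 lay below both controls for 32 members and IL6 replicate 2 for 23. The matching shares of all tested genes were not computed, so these 2 counts are a description only. Without IL6 replicate 1 the median log2 change with IL6 was −0.082 over the tested basement membrane genes and 0.002 over the fibrillar genes. Without IL6 replicate 2 these medians were −0.28 and −0.079.

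Genes that act on the matrix were read from further lists. Of 32 genes for collagen folding, processing and cross-linking 29 were tested, and with OSM 15 rose and 1 fell, with a median log2 change of 0.26. Among all tested genes 10.8% rose and 10.6% fell with OSM. With LIF 4 of the 29 rose, against 4.2% of all tested genes. With IL6 0 were called and 4 had an unadjusted p under 0.05, against 5.1% of all tested genes. Lox, the enzyme that starts collagen and elastin cross-links, rose with OSM from 358.1 and 349.7 CPM to 1193 and 1144, by 1.72 (SE 0.096), and Bmp1, which trims procollagen ends, by 1.35 (SE 0.063). Plod3, a collagen lysyl hydroxylase, rose by 1.09 (SE 0.058) and Loxl2 by 1.61 (SE 0.28) from a low level, and P3h2, a prolyl 3-hydroxylase, fell by 0.37 (SE 0.085).

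Matrix receptors moved both ways. All 27 were tested, and 9 rose and 5 fell with OSM, where 21.4% of all tested genes were called. With LIF 6 rose and 4 fell, against 7.66% of all tested genes called. With IL6 0 were called and 3 had an unadjusted p under 0.05, against 5.1% of all tested genes. Sdc1, a heparan sulfate proteoglycan of the cell surface, rose with OSM from 128.8 and 135.0 CPM to 550.1 and 526.6, by 2.03 (SE 0.065). Itga11, a receptor chain for fibrillar collagen, rose by 0.89 (SE 0.12), Sdc4 by 0.72 (SE 0.060) and Itga4 by 0.69 (SE 0.088). Itga8, an integrin chain that binds fibronectin, tenascin C and osteopontin among others, fell by 3.43 (SE 0.33), Itga9, another chain that binds tenascin C and osteopontin, by 0.70 (SE 0.14), the laminin receptor gene Bcam by 0.60 (SE 0.12) and the collagen receptor gene Ddr2 by 0.52 (SE 0.086).

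The remaining collagen and laminin chains were mostly low, and 22 of 31 were tested, of which 5 rose and 4 fell with OSM and 4 rose and 2 fell with LIF, against 21.4% and 7.66% of all tested genes called. Col27a1 rose with OSM by 1.78 (SE 0.17), Col23a1 by 1.63 (SE 0.22), Col28a1 by 1.03 (SE 0.30) and Col25a1 by 0.60 (SE 0.12). Col4a4, a collagen IV chain of specialised basement membranes, fell by 3.33 (SE 0.35) from 2.54 and 2.32 CPM, Lamb3 by 0.82 (SE 0.19), and Col8a2 and Col9a3 by 2.26 and 2.96 from under 1 CPM in control, on few counts. Of 42 other matrix glycoproteins and proteoglycans 26 were tested, and 7 rose and 4 fell with OSM, while with LIF 3 rose and 3 fell, against the same shares of all tested genes. Ecm1 rose from 145.5 and 155.6 CPM to 918.7 and 927.2, by 2.62 (SE 0.073), Ccn5 by 2.03 (SE 0.28), Efemp2, a fibulin gene needed for elastic fibres, by 0.94 (SE 0.078), and Ccn1 by 0.76 (SE 0.11). Podn, Ccn4, Smoc2 and Ltbp4 fell by 0.94, 0.40, 0.40 and 0.31. With IL6 the lists of other chains and of other glycoproteins had 0 calls each. An unadjusted p under 0.05 was found for 6 of the 22 tested chains and 4 of the 26 tested glycoproteins and proteoglycans, against 5.1% of all tested genes.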

How the data were processed

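RNA was measured by sequencing in 8 libraries, 2 in each of the groups control, IL6, LIF and OSM. The authors deposited unnormalised counts of reads for each Ensembl gene. Per the labels' protocols, an Illumina kit that keeps strand was used for library preparation from mRNA. Per the submitters' processing notes, the tools listed are FastQC 0.11.9, MultiQC 1.12, Trim Galore 0.6.5, STAR 2.7.3a, HTSeq 0.11.1 and DESeq2 1.34.0, and the builds GRCm39 and mm39. The annotation release and strand setting are not given in the sources used here. The 5 summary lines per file name no gene, held 11.7% to 12.7% of the recorded alignments and stayed out of library sizes and tests. Reads lost to such lines lower the level of genes that overlap others or have copies.

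Symbols, exon lengths and overlaps came from GENCODE M21 (GRCm38), which holds 52094 of the 53647 identifiers and 99.8% of the counts. Promoter windows came from RefSeq on GRCm38.p6. Counts were tested with edgeR 4.0.16 in R 4.3.3: filterByExpr at a minimum count of 10 left 15603 genes, TMM scaling, and a robust quasi-likelihood fit of 4 group means to all 8 libraries (4 residual degrees of freedom) with the quasi-likelihood F test in 6 contrasts. P-values were adjusted by Benjamini and Hochberg over all tested genes and called under 0.05, and 95% intervals use the degrees of freedom of the fit. The fit was tested on simulated data. Levels per length divide CPM by the union of M21 exons.

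Alternatives were size factors of the relative log expression type, DESeq2 1.42.0, no filter on low counts, a fit of the 2 groups compared, the replicate number as a block, and leaving out each library. Members and lists were chosen with earlier results of these data known. The genes given library by library were 12 named whatever their values, and among called members the 8 largest rises and falls with OSM, the 3 largest each way with LIF, with IL6 and for OSM against LIF. From each further list up to 4 called genes each way with OSM were named. Other members are given by counts or single values. Counting intervals cover counting error only, as the reads carry no molecular identifiers.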

Additional observations from a re-analysis of the deposited data

How the results depend on the processing

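The 28 members called with OSM against control were all called under size factors, no filter, the replicate block, the fit of 2 groups and DESeq2. In the same order, 3312, 3704, 3966, 3430 and 2721 of all tested genes were called, against 3335 in the main fit. Leaving out single libraries gave 9 to 25 for LIF against control, 0 to 11 for IL6 against control, 9 to 21 for OSM against LIF, 20 to 29 for OSM against IL6 and 0 to 16 for LIF against IL6. The number called over all tested genes moved broadly along with these counts. With no filter on low counts 5 members were called for IL6 against control in place of 0, and 97 of all genes in place of 0. In the fit of 2 groups 25 members were called for OSM against LIF in place of 14, and 2928 of all genes in place of 1255. The cause was not tested.

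The difference between the fibrillar and basement membrane medians ranged, with single libraries left out, from 0.3942 to 0.5123 with OSM, 0.2397 to 0.3123 with LIF and 0.0844 to 0.2004 with IL6, positive throughout. With the longest coding transcript as length, an alternative chosen after seeing the data, the control ratios became 365.2 for Col1a1 to Col1a2, 1.368 for Col4a1 to Col4a2 and 3.509 for Col6a1 to Col6a2, from 766.8, 1.244 and 5.877.

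Some small changes that were not called turned sign. Lamc1 with OSM was 0.002 with no filter and −0.0214 to 0.0217 with single libraries left out. Col1a2 ranged from −0.1387 to 0.6402 with OSM and from −0.6648 to 0.1159 for OSM against LIF, Col6a3 from −0.3831 to 0.05 with LIF, Tnc from −0.3062 to 0.1556 with LIF, and Fbln2 from −0.1725 to 0.0563 for OSM against LIF. For the named tested members, 936 values were recomputed for OSM and LIF against control and for OSM against LIF. Of these, 881 kept direction and side of the threshold. Many of these members were named for the size of a called change, so the share does not describe all members.

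Replicate numbers are shared by the groups, but the labels do not say that they pair the libraries. Correlations over genes of the difference between replicates 1 and 2 ran from 0.007 to 0.181 between groups. With the replicate block 28 members were called with OSM, 24 with LIF, 0 with IL6, 17 for OSM against LIF, 29 for OSM against IL6 and 16 for LIF against IL6. In the same order, 3966, 1670, 9, 1760, 3000 and 826 of all tested genes were called with the block. Without it these numbers were 3335, 1195, 0, 1255, 2426 and 434. Among the named members the block changed 1 call, Spp1 with LIF (adjusted p 0.0416). Depth limits Fmod, Col1a2, Col14a1 and Nid1, which have few counts.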
